A study of Homo sapiens with 2 samples.

Results

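The genes described here encode histone modifying enzymes and bromodomain readers, measured in a human lymphoblastoid line, a B-cell culture made to grow without limit by transformation with Epstein-Barr virus. Members were the probe sets with exactly 1 annotated gene symbol that starts with HDAC, SIRT, KDM, KMT, KAT, BRD or SETD followed by a digit. The rule used names only and found 152 of 36289 probe sets, for 68 of 16716 genes. A matched gene with 1 probe set lies on the Y chromosome and is counted but given no value, which left 151 probe sets of 67 genes: 64 genes of the 7 families, and BRD3OS, BRD7P3 and HDAC2-AS2, which share only the start of their symbol. BRD3OS lies opposite BRD3, BRD7P3 is a pseudogene and HDAC2-AS2 is a non-coding RNA gene that overlaps HDAC2. A further 2 probe sets carried a member symbol beside another gene's (KMT2C, KAT14) and were left out.

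The study has 1 group of 2 samples, replicates 1 and 2 of the line that the titles call GM06690 and the growth protocol GM06990. Each sample's total RNA was hybridised to 1 Affymetrix Human Genome U133 Plus 2.0 array. The line carries no other stated treatment, and no condition is compared. The labels do not state whether the replicates are separate cultures, so their spread may be technical.

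Histones are the proteins that DNA is wound around, and their tails carry acetyl and methyl groups. Acetyltransferases (KAT) and methyltransferases (KMT, most SETD) add these groups, deacetylases (HDAC and SIRT) and demethylases (KDM) remove them, and bromodomain proteins (BRD) bind acetylated lysines. HDAC enzymes use a zinc ion, whereas sirtuins use NAD+. In B cells such enzymes take part in the changes of gene activity between resting, germinal centre and antibody-secreting stages.

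Signals are log2 RMA intensities, given for replicate 1 and then replicate 2. The background level of an array was the 95th percentile of the signals of 81 genes restricted to other tissues such as liver, muscle or eye. It was 5.67 in replicate 1 and 5.45 in replicate 2, and a gene or probe set was called above background when it exceeded both. On both arrays the level was the signal of the same tissue-restricted gene, CYP3A4. The gap between the levels is therefore the difference of that gene between the arrays (-0.22, replicate 2 minus replicate 1). Calls on a single array depend on this gap. A gene was represented by its brightest probe set. Probe sets differ in affinity, so a higher signal of one gene than of another is no ranking of their transcripts. The label of the line was checked with markers: 9 of 9 measured B-cell markers were above background, among them MS4A1 (13.12 and 13.26), PAX5 (12.15 and 12.10) and CR2, the receptor for Epstein-Barr virus (11.10 and 10.94). Of 32 markers of other cell types 4 were above: PRF1, COL1A1, DCN and HBB, at means from 5.74 to 7.24, whereas 0 of 10 T-cell and 0 of 7 myeloid markers were. The myeloid marker S100A9 came close, as it exceeded the level in replicate 2 alone (5.66 and 5.89). Its mean of 5.78 was higher than the 5.74 of PRF1. The part of other cells in the results was not tested.

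Most of these genes were above background. The call was made for 55 of the 67 genes (82.1%), against 52.8% of all measured genes, and for 101 of the 151 probe sets (66.9%), against 44.0% of all probe sets. A gene with more probe sets has more chances to pass. At least 2 probe sets were present for 41 of the 67 genes, against 7350 of all 16716. Within the 7 families 54 of 64 genes were above. The 10 that were not came from 5 families: HDAC10, SIRT4, KDM4D, KDM5B, KDM6B, KDM7A, KDM8, KMT2D, KMT5C and SETD7. All measured KAT and BRD genes were above background.

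**Figure D1:**
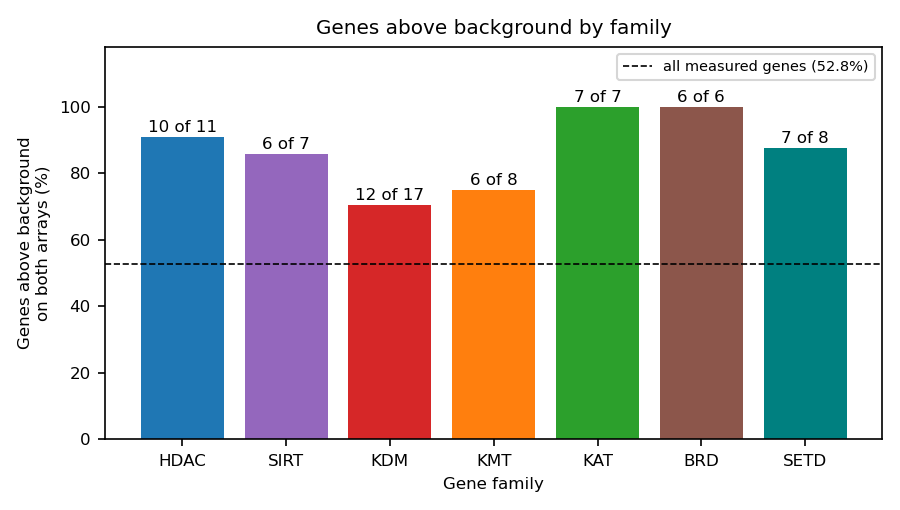
Percentage of measured genes above background on both arrays in each family, with counts over the bars; the dashed line is the 52.8% of all measured genes. The shares run from 12 of 17 KDM genes to all of the 7 KAT and 6 BRD genes.

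Of the zinc-dependent deacetylases 10 of 11 were above background. The class I enzymes, most of them catalytic subunits of nuclear repressor complexes, were all above. HDAC1 gave 12.26 and 12.31, and HDAC2, its close paralogue, 11.07 and 11.01. HDAC3, the enzyme of the NCoR and SMRT complexes, gave 9.43 and 9.37. The signals of these 3 genes lay more than 3 log2 units over the level on both arrays, each by its only probe set. HDAC8 was above by all 3 of its probe sets (brightest 7.06 and 6.91).

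The class IIa enzymes, which shuttle between nucleus and cytoplasm and bind MEF2 factors, were above in 4 of 4 cases, but 2 of them lay close to the level. HDAC9 gave 9.64 and 9.62, although its 2 other probe sets gave means of 3.85 and 4.04. HDAC5 gave 6.45 on both arrays. HDAC4 (6.16 and 5.89, by 1 of 2 probe sets) and HDAC7 (5.76 and 5.80) lay within 0.5 of the mean level. In class IIb the tubulin deacetylase HDAC6 was above (7.66 and 7.51, by 2 of 3 probe sets), and HDAC10, a polyamine deacetylase, was not (5.31 and 5.16). HDAC11, the class IV enzyme, was above on both arrays by a small margin (5.99 and 5.73). HDAC2-AS2 was not above background (4.41 and 4.36).

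Among the sirtuins 6 of 7 were above background. The nuclear members were all above: SIRT1, which deacetylates p53 among other proteins, gave 8.75 and 8.72, SIRT6 gave 6.75 and 6.59, and the nucleolar SIRT7 gave 9.01 and 8.74. The mainly cytoplasmic SIRT2 gave 7.34 and 7.58. The mitochondrial members were divided. SIRT3, the main mitochondrial deacetylase, gave 6.50 and 6.96, and SIRT5, which removes succinyl and malonyl groups, gave 7.69 and 7.66. SIRT5 was called by 1 of its 5 probe sets. SIRT4 was near the bottom of the scale on both arrays (3.93 and 3.96), and neither of its 2 probe sets was above background.

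The lysine demethylases had the lowest share, with 12 of 17 above background. Which family was lowest depended on the settings. Without replicate 1 the share was 14 of 17 for KDM and 6 of 8 for KMT. With the level at the 75th percentile it was 15 of 17 for KDM and 6 of 7 for SIRT. The flavin-dependent enzymes of H3K4, KDM1A (10.04 on both arrays) and KDM1B (mean 5.96 ± 0.07, SD, n = 2), were both above. KDM1B lay within 0.5 of the mean level and was called by 1 of its 2 probe sets. The H3K36 demethylases KDM2A (9.58 and 9.69) and KDM2B (10.24 and 10.21), which also bind unmethylated CpG through a CXXC domain, were above. So were the H3K9 demethylases KDM3A (9.15 and 9.14) and KDM3B (9.33 and 9.22). In the KDM4 group, which acts on H3K9 and H3K36, 3 of 4 genes were above. KDM4A gave 8.66 and 8.63, KDM4B 9.80 and 9.75, and KDM4C 8.40 and 8.41. KDM4D did not pass (4.36 and 4.42, with 1 probe set).

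The KDM5 enzymes, which remove di- and trimethylation from H3K4, did not share one call. KDM5A was above (9.02 and 9.23, by 3 of 4 probe sets), and KDM5C, an X-linked gene, was above with its single probe set (6.47 and 6.28). KDM5B had 4 probe sets, none above on both arrays, and its brightest exceeded the level in replicate 2 alone (5.53 and 5.52). The H3K27 demethylases differed in call as well: KDM6A was above by all 3 probe sets (brightest 8.26 and 8.20), whereas 0 of 3 passed for KDM6B (brightest 5.18 and 5.40). KDM7A, which acts on H3K9 and H3K27, was not above (4.47 and 4.69), nor was KDM8 on both arrays (5.57 and 5.67, above in replicate 2 alone).

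The KMT2 enzymes, large methyltransferases of H3K4 that act at promoters and enhancers, were above background in 4 of 5 cases. KMT2A had the most probe sets of any member, 9, of which 6 were above (brightest 9.02 and 8.83). KMT2B was above by 1 of 3 probe sets (7.10 and 6.99) and KMT2C by 3 of 4 (brightest 8.83 and 8.82). KMT2E, a family member whose SET domain is regarded as inactive, was above by all 3 (brightest 10.06 and 10.07). KMT2D, an enhancer methyltransferase, was not above by any of the 3 probe sets used (brightest 4.80 and 4.75), but passed when the level was lowered to the 75th percentile. Of the H4K20 enzymes, KMT5A, which adds the first methyl group (8.15 and 7.94), and KMT5B (9.17 on both arrays) were above by all 3 probe sets each, whereas KMT5C was not (5.59 and 5.35).

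Of the SETD genes 7 of 8 were above background. SETD1A and SETD1B encode the catalytic subunits of related H3K4 methyltransferase complexes. SETD1B gave 9.19 and 9.26. SETD1A lay almost on the level, at 5.67 and 5.53, and only just exceeded it in replicate 1. SETD2, the enzyme that trimethylates H3K36, was above by 3 of 3 probe sets (brightest 10.36 and 10.33). SETD3, an actin histidine methyltransferase, gave 8.97 and 8.88. SETD4 gave 8.03 and 8.09, SETD5 gave 9.46 and 9.37 with all 4 probe sets above, and SETD6, which methylates the NF-kB subunit RelA, gave 8.44 and 8.43. SETD7, which methylates H3K4 and many other proteins, was not above background with its 1 probe set (4.92 and 4.49).

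All 7 measured acetyltransferases were above background. These were the SAGA and ATAC subunits KAT2A (8.03 and 8.16) and KAT2B (mean 8.03 ± 0.05, SD, n = 2), and the 5 MYST enzymes. KAT5, the TIP60 catalytic subunit, was above by 3 of 3 probe sets (brightest 8.65 and 8.73), all of them of the _x_at type, whose probes may bind other transcripts. KAT6A gave 9.56 and 9.52 and KAT6B 9.34 and 9.28, with 2 of 4 and 4 of 5 probe sets above. KAT7, which acetylates H3K14 and H4, gave 8.54 and 8.64, and KAT8, the H4K16 enzyme, gave 9.53 and 9.57.

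The bromodomain genes were above in 6 of 6 cases. All but BRD3 were called only by _x_at or _s_at probe sets, and without these 1 of 2 measured BRD genes was above. BRD2 and BRD3 belong to the BET group, which binds acetylated histones at active genes. BRD2 gave 11.45 and 11.54 with all 3 probe sets above, and BRD3 gave 7.84 and 8.03 with 2 of 3. BRD3OS, which overlaps the BRD3 locus, was also above (7.55 and 7.54). BRD7 and BRD9, subunits of SWI/SNF remodelling complexes, gave 10.25 and 10.20, and 8.25 and 8.06. BRD8, a TIP60 complex subunit, gave 10.06 and 9.96 by 1 of 2 probe sets, and BRD1, a scaffold of MYST acetyltransferase complexes, gave 7.94 and 7.92 by 2 of 2. BRD7P3 was not above background (3.85 and 3.95).

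Genes that work with these enzymes, or are of like kinds under other names, were above background in 131 of 137 cases. That was 95.6%, against 52.8% of all measured genes. The lists were chosen with earlier results of these data known. All 12 measured subunits of the KMT2 and SETD1 complexes were above, including WDR5 (8.89 and 8.81), ASH2L (10.28 and 10.25) and RBBP5 (7.73 and 7.62). Of the deacetylase complex subunits 24 of 25 were above, such as the histone chaperones RBBP4 (11.87 and 11.77) and RBBP7 (12.57 and 12.58) and the NuRD subunit MTA1 (8.91 and 8.88); MTA2 was not, by the 1 probe set used (4.69 and 4.43). Of the acetyltransferase complex subunits 39 of 40 were above, including TRRAP (9.17 and 9.20), EP400 (7.70 and 7.49) and RUVBL1 (10.42 and 10.29) but not SUPT3H (5.36 and 4.63).

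Other enzymes, JmjC proteins and bromodomain genes were above in most cases too. All 9 other acetyltransferases were above, with EP300 at 8.30 and 8.10, CREBBP at 9.50 and 9.40 and HAT1 at 11.86 and 11.92. Of the other methyltransferases 16 of 17 were above, among them NSD1 (7.14 and 7.23), NSD2 (10.03 and 10.17) and NSD3 (10.01 and 9.99), with SETDB2 not above (mean 4.80 ± 0.28, SD, n = 2). Of the other demethylases and JmjC proteins 8 of 9 were above, such as JMJD1C (10.05 and 10.03), PHF2 (mean 7.98 ± 0.02, SD, n = 2) and PHF8 (7.01 and 7.11), but not HR (4.49 and 4.35). Of the other bromodomain genes 25 of 27 were above, including ATAD2 (10.39 and 10.36), ATAD2B (7.80 and 7.74) and BAZ1A (10.82 and 10.84). The exceptions were CECR2 (4.27 and 4.25) and BRDT, a testis BET protein (3.65 and 3.54).

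Several calls rested on 1 probe set among several. Of the 41 genes with at least 2 probe sets, 18 had all above background (43.9%, against 33.7% of all genes with at least 2), 7 had none (17.1%, against 34.1%) and 16 had some (39.0%, against 32.2%). The share with some rises where fewer genes have none, so it does not show that probe sets disagreed more often here. Among the 16 genes with some above, KDM4B had 3 of 6 probe sets above, KDM4C 1 of 3 and SIRT2 1 of 2. In 7 of the 16 the split was gone without probe sets that have a 7-digit identifier. Of 22 probe sets with a 7-digit identifier 4 were above background (18.2%, against 13.3% of all such probe sets), namely 2 of SETD5, 1 of SETD6 and 1 of KMT2A. Of the other 129 probe sets 97 were above (75.2%, against 55.5%). Without the 7-digit probe sets, a choice made after seeing the data, 9 of 33 genes had some but not all above, and the same 55 genes stayed above background.

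Near the level, the call depended on small distances. Of the 10 genes whose mean lay within 0.5 of the mean level, SETD1A, HDAC7, HDAC11, KDM1B and HDAC4 were above on both arrays, and HDAC10, KDM6B, KMT5C, KDM5B and KDM8 were not. Of the 67 genes 2, KDM5B and KDM8, passed on 1 array only (2.99%, against 2.27% of all genes). For both genes this was replicate 2, where the level was lower.

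The arrays gave close values for these genes. The median absolute difference between the arrays was 0.11 over the 151 probe sets and 0.11 over all probe sets. It was 0.09 over the 101 probe sets above background and 0.17 over the 50 that were not, against 0.08 and 0.14 over all probe sets of each kind. Of the 55 genes above background 0 had a difference over 0.5 (log2), against 0.952% of all genes above background. Replicate 1 was higher in 34 of the 55 and replicate 2 in 21 (38.2%, against 42.3% of all genes above background). The median difference (replicate 2 minus replicate 1) was -0.03, against -0.02 over all genes above background. For the genes described here it was 0.002 after a second quantile normalization and 3.2e-05 after a loess curve was removed.

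The largest differences among genes above background were modest. SIRT3 was higher in replicate 2 by 0.46, followed by SIRT2 (0.23), KDM5A (0.20), BRD3 (0.19) and KAT2A (0.12). In the other direction SIRT7, HDAC4 and HDAC11 each differed by -0.27, KMT5A by -0.21 and KMT2A by -0.20. For 26 genes with at least 2 probe sets above background, the brightest pair pointed the same way in 12 (46.2%). The same share over all genes was not computed, so this count cannot be set against it. The 4 probe sets that differed by more than 0.5 (1 each of HDAC4, KDM6B, KAT6A and SIRT5) were all below background on both arrays.

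**Figure D2:**
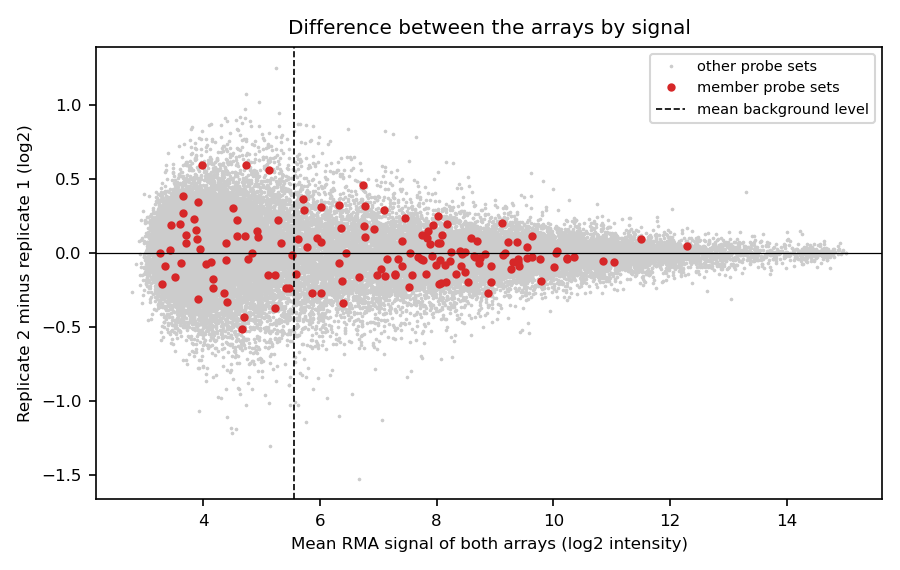
Difference between the arrays (replicate 2 minus replicate 1, log2) against the mean log2 signal for the probe sets described here (red) and all others (grey; probe sets of Y-linked genes and XIST are not plotted), with the mean background level as a dashed line. The red points lie within the grey cloud, and those above background stay within 0.46 of 0.

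Their promoters shared a composition that the rule did not use. RefSeq promoter windows (GRCh38.p14, from 250 bases before to 50 after the transcription start) were matched by symbol for 61 of the 67 genes. A CpG island-like window was defined as an observed over expected CpG ratio of at least 0.6 and a GC content over 50%, and a gene had one if any of its windows did. This held for 58 of the 61 genes (95.1%), against 71.3% of 13095 measured genes with a window. Over single windows the shares were 81.3% of 91, against 46.8% of all 35116 in the table. The latter were not limited to measured genes, and the share over windows of measured genes alone was not computed. With a ratio of at least 0.75 and a GC content over 55% they were 77.0% of the genes, against 56.9%. Among all measured genes, those with an island-like window were above background in 70.0% of cases and those without in 22.5%. Among the 58 described here with one, 48 (82.8%) were above background, so 10 genes with an island-like window were not. The 3 genes without one were HDAC8 and BRD8, both above background, and HDAC2-AS2, which was not.

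The 4 windows below, chosen after their values were seen, show the contrasts between composition and call, with each CpG in capitals. HDAC1 (chr1:32291833-32292132, plus strand, 28 CpG) is island-like and above background. HDAC8 (chrX:72572794-72573093, minus strand, 9 CpG) is not island-like and above background. KMT2D (chr12:49060745-49061044, minus strand, 27 CpG) is island-like and not above background by the probe sets used. HDAC2-AS2 (chr6:113969451-113969750, plus strand, 1 CpG) is neither.
HDAC1: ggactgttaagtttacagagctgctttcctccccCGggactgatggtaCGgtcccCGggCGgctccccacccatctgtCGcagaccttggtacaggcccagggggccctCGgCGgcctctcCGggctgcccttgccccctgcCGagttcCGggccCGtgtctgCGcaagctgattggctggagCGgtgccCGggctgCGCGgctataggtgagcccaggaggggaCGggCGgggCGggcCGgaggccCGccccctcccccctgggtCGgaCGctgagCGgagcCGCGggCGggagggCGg
HDAC8: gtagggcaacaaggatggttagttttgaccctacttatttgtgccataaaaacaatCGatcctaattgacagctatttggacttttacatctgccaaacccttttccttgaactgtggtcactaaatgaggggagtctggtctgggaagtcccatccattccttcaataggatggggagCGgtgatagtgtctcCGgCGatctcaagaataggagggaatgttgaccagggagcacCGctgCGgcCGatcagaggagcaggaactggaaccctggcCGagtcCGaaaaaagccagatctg
KMT2D: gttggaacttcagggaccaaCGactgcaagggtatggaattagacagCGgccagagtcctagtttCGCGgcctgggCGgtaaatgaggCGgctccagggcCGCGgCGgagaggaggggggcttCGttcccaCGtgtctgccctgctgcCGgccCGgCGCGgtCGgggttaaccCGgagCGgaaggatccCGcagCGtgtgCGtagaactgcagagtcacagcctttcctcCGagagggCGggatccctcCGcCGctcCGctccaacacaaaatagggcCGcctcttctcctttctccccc
HDAC2-AS2: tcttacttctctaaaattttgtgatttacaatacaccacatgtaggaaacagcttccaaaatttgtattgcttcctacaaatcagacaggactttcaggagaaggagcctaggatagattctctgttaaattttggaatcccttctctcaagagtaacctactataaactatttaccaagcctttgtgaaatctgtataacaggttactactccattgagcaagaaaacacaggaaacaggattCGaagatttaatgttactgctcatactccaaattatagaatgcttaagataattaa
The observed over expected CpG ratios of these windows were 0.69, 0.50, 0.85 and 0.12.

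**Figure D3:**
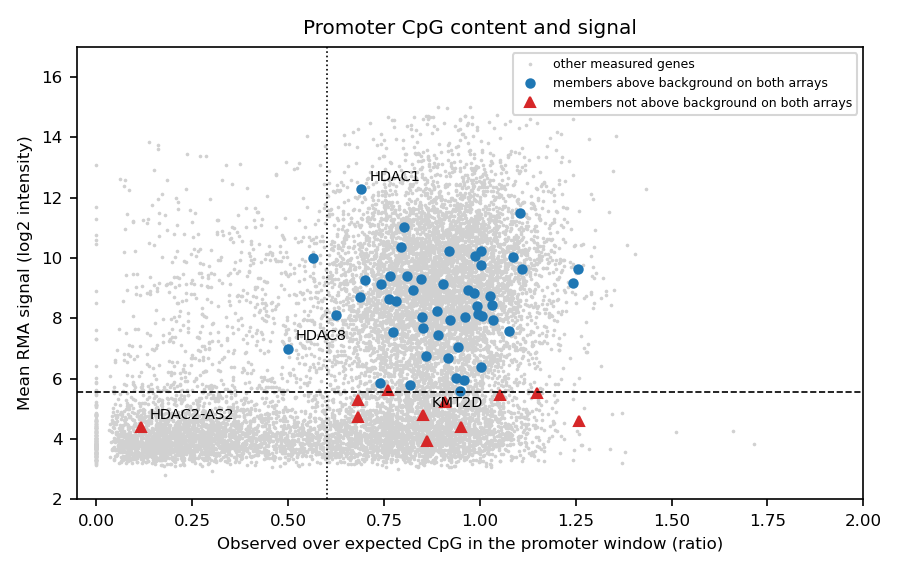
Mean log2 RMA signal against the observed over expected CpG ratio of the gene's promoter window (the highest where it has several) for the genes described here, above background on both arrays (blue circles) or not (red triangles), and other measured genes (grey; Y-linked genes and XIST are not plotted). The dotted line marks a ratio of 0.6 and the dashed line the mean background level; all but 3 of the coloured points lie to the right of the dotted line, at signals on both sides of the dashed line.

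Short promoter motifs were recorded as present or absent on either strand of the same windows, in any window of a gene. The number of matches was not counted, and none of the motifs contains another. The NF-Y motif CCAAT was present in 20 of the 61 genes (32.8%, against 42.6% of measured genes), among them HDAC1, KDM3A, KDM3B and SETD5. The Sp1 motif GGGGCGGGG was present in 21 (34.4%, against 27.6%). The ETS motif CCGGAAGT was found in 5 (8.20%, against 7.39%): KAT5, KAT7, KDM5A, SETD6 and SIRT3. The YY1 motif AAGATGGCG was found in 6 (9.84%, against 3.50%): BRD2, BRD8, KAT5, KDM5C, KMT2B and KMT5B. The NRF1 motif GCGCATGCG was found in 3 (4.92%, against 3.27%): SETD4, SIRT5 and SIRT6. Over single windows the shares differ from those over genes. Of the 91 windows of the genes described here, 27.5%, 26.4%, 5.49%, 7.69% and 4.40% had the NF-Y, Sp1, ETS, YY1 and NRF1 motif. Over all windows in the table, not limited to measured genes, the shares were 34.6%, 15.7%, 4.14%, 1.75% and 1.92% in the same order. The counts of the last 3 motifs are small, and a match in a window does not show that a factor binds there.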

How the data were processed

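RMA was applied to the arrays by the authors, per the submitters' processing notes; its version and the genome build are not given in the sources used here. The deposited values are probe set intensities from 6.29 to 33093, so they are on a linear scale, and log2 was taken here. The median intensity was 33.2 and 33.3. RMA equalises the arrays and gives no detection call. A change in total messenger RNA could not be seen, and 2 arrays limit the precision. Fewer cells of a type and less RNA per cell cannot be told apart in bulk samples.

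The probe sets used are not all of the array's, and a gene can have others that were not used here. Names came from the array's platform annotation and were brought up to date through Entrez IDs with a RefSeq table (GRCh38.p14): 29493 had 1 symbol, 1407 several and 5389 none. No member symbol changed. The background level came from 81 measured of 90 listed tissue-restricted genes; 4 of them exceeded it on both arrays. The step that calls genes against a level was checked on simulated data. Genes simulated as above lay clear of the level, and the others were drawn from the same tissue-restricted genes that set it. The outcome was thus largely fixed in advance and does not show how well the level separates genes. Genes just over the level were not covered.

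With 1 group no test between conditions was run, so no p-values are given. Members, gene lists and tests were chosen with earlier results of these data known. Members were named with their values, apart from the gene on the Y chromosome; partner lists give the first 3 measured genes and those not above background. Python 3.11.15, pandas 2.3.3 and statsmodels 0.14.6 were used. Alternatives tried were other levels, probe set choices, single arrays, a second quantile normalization and a loess curve of span 0.3.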

Additional observations from a re-analysis of the deposited data

How the results depend on the processing

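The count of 55 of 67 genes was 62 when the level was lowered to the 75th percentile, 49 when raised to the 99th, 59 with the level from 67 olfactory receptor genes, 51 with the mean of a gene's probe sets and 39 with its dimmest. Without replicate 1 it was 57 and without replicate 2 it was 55. At the 99th percentile HDAC4, HDAC7, HDAC11, KDM1B, KDM5C and SETD1A were no longer above background. At the 75th percentile HDAC10, KDM5B, KDM6B, KDM8, KMT2D, KMT5C and SETD7 passed, so 7 of the 10 family genes called not above depended on the level; with olfactory receptor genes KDM5B, KDM6B, KDM8 and KMT5C passed. When _x_at and _s_at probe sets were dropped, the level was set again from the probe sets left and fewer genes could be measured. KDM6B and KDM8 then passed, and 38 of 47 genes and 50 of 78 probe sets were above, with 1 of 2 BRD genes, 3 of 4 SIRT genes, 12 of 18 deacetylase complex subunits and 14 of 21 other bromodomain genes. With the dimmest probe set of each gene, which can only lower a count, 3 of 8 KMT genes, 5 of 9 other acetyltransferases, 10 of 27 other bromodomain genes, 5 of 9 other demethylases and JmjC proteins and 9 of 17 other methyltransferases were above. Without 7-digit probe sets 9 genes had some but not all probe sets above, and with the stricter promoter definition the island-like share was 77.0%. Of the 170 values recomputed, the other 158 stayed within 1.5 times the reported count or, for differences between the arrays, within the spread of the replicates. Counts were compared as such, also where fewer genes could be measured, so a share can change more than its count. Without _x_at and _s_at probe sets 13 of 21 genes had some but not all probe sets above, against 16 of 41. No paired analysis was possible because there is 1 group. The distance of a signal from background limits each call.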
